A study of Mus musculus with 12 samples.

Results

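The genes described are the chains of the collagens and the enzymes and chaperones that process them, followed in 12 mouse tumors. They were chosen by symbol alone: every row of the deposited table whose gene symbol has the form Col, number, a, number, together with Pcolce, Plod1, Plod2, Plod3, Lox, Loxl1, Loxl2, Serpinh1 and Bmp1. The rule found 41 of the 14496 genes of the table, namely 32 of 44 mouse collagen symbols and 9 of 9 processing genes. Of these, 38 reached 1 CPM (reads scaled by the depth of each library; 1 CPM is a log2 value of 0) in 6 or more tumors and were tested. The other 3, Col11a2, Col22a1 and Col28a1, were below that level and are given as values, each with an exact permutation p for that gene alone. The 12 further symbols (Col2a1, Col4a6, Col6a4, Col6a6, Col9a1, Col9a2, Col9a3, Col10a1, Col17a1, Col19a1, Col25a1 and Col26a1) were not analysed here.

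All 12 libraries came from whole subcutaneous tumors of Renca cells, a renal carcinoma line, in mice of the BALB/C strain, taken on day 14 with tumor and stromal cells together. In 6 of them (IK1 to IK6, the IK group) the mouse also carried an intra-kidney tumor, and in the other 6 (SC1 to SC6, the SC group) it did not. The comparison asks how a tumor at a second site relates to the transcripts of the subcutaneous tumor. The labels name no genotype, age or drug treatment and leave unsaid if each mouse gave a single tumor, so the p-values speak of the spread among these 12 samples, part of which may be technical. Depth was 53312559 to 66142468 recovered reads per tumor. Of the renal epithelial markers 6 of 7 were in the table, and their summed level was 11.28 to 11.35 log2 CPM in the IK group and 11.20 to 11.53 in the SC group. Of 8 cartilage and bone markers and 5 skin markers, 0 were in the table.

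Collagens are trimers of alpha chains wound into a triple helix. In the endoplasmic reticulum, prolyl and lysyl hydroxylases (the Plod genes encode the latter) modify the chains and the chaperone HSP47, encoded by Serpinh1, binds the folded helix. Outside the cell, the protease encoded by Bmp1 removes the C-propeptides of fibrillar procollagens, a step that the protein of Pcolce enhances, and lysyl oxidases (Lox and its relatives) cross-link the fibrils. Types I, III and V form fibrils, type VI beaded filaments and type IV the sheet of basement membranes. In solid tumors fibroblasts are the best known source of fibrillar collagen, while vessels and epithelia lie on basement membrane.

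Promoters are shown for 3 fibrillar chain genes whose transcripts the results turn on. Col1a2 and Col3a1 followed Col1a1 over the pooled tumors, while Col11a1 did not (Pearson r = 0.15). Within the groups the r of Col11a1 with Col1a1 was -0.517 (IK) and 0.839 (SC). The 3 were chosen after their values were seen. Each is the 250 bases before the annotated start, 5′ to 3′ on the gene's strand, from RefSeq on build GRCm38.p6, which is not the build of the deposited table. Capitals mark 3 motifs searched on both strands: the CCAAT box by the letters in its name, the TATA box as TATAAA and the GC box as GGGCGG. No 2 of the marked motifs overlap in these windows. The positions are chr6:4505368-4505617 for Col1a2, chr1:45311288-45311537 for Col3a1 and chr3:114030290-114030539 for Col11a1, all on the plus strand.
Col1a2: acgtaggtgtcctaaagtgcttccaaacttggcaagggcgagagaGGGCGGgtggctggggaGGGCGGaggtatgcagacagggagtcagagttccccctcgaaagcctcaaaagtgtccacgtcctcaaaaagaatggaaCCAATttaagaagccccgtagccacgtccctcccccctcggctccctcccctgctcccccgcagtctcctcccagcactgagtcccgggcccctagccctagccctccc
Col3a1: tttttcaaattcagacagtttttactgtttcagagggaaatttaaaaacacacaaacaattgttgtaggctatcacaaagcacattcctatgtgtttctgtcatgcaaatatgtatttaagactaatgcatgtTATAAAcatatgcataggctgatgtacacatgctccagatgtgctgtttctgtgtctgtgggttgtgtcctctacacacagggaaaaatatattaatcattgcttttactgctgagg
Col11a1: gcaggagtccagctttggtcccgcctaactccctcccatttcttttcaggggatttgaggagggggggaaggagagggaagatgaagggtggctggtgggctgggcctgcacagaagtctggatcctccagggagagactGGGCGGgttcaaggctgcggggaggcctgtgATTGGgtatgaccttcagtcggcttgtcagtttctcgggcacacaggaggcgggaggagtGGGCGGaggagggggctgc
The Col1a2 and Col11a1 windows both hold a CCAAT box (on the other strand in Col11a1) and 2 GC boxes, while the Col3a1 window holds a TATA box. A promoter entry was found for 30 of the 41 genes (32 entries). The CCAAT box was present in 10 entries (31.2%), beside 33.8% of all 32851 promoter windows of that length. The TATA box was in 4 of the 32 entries, beside 12.4% of all windows. The GC box was in 20 of the 32 entries, a larger share than the 32.7% of all windows, and this was not tested. These are matches of letters, not sites shown to be bound.

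Transcripts of the 3 major fibril chains led the collagens on average. As levels per kilobase of the longest annotated transcript (CPM per kb, geometric mean over 12 tumors), Col3a1 stood at 479, Col1a2 at 466 and Col1a1 at 436. They were followed by Serpinh1 at 304, Pcolce at 280 and Col18a1, whose chain yields endostatin, at 260. Col3a1 and Col1a2 differed by 0.04 ± 0.13 (log2, SD over 12 tumors), less than their spread, whereas Col1a1 was below Col1a2 by 0.10 ± 0.06. Serpinh1 lay above Pcolce by 0.12 ± 0.09 and Pcolce above Col18a1 by 0.11 ± 0.11. Col6a1 (145) headed the beaded filament chains and Col12a1 (87.1) the fibril-associated ones. From Bmp1 (89.1) to Col12a1 (0.03 ± 0.35) and from Col5a2 (55.8) through Col4a1 (55.6), Plod3 (55.2) and Col5a1 (53.7) to Plod1 (53.1), neighbours differed by less than their spread. The lowest tested level was that of Col4a5, at 0.151.

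The amount of collagen transcript differed widely from tumor to tumor. Reads of Col1a1, Col1a2 and Col3a1 together took 4485 to 15043 CPM, a 3.35-fold range, and all 41 genes took 11379 to 25614 CPM. The 3 highest tumors for the 3 chains were SC5 (15043), SC1 (12515) and IK2 (11796), and the 2 lowest were IK6 (4485) and SC6 (4610), so each group held both high and low tumors. SC5 had the highest value for 27 of the 41 genes and SC6 the lowest for 17. SC1 was among the 3 highest tumors for 29 genes, SC5 for 31, IK2 for 19 and SC4 for 16. The first principal component of all tested genes took 62.6% of the variance, with SC6, IK4 and IK6 at one end and SC5 at the other. Its Pearson correlation with Col1a1 over the 12 tumors was 0.922, as a description.

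**Figure D1:**
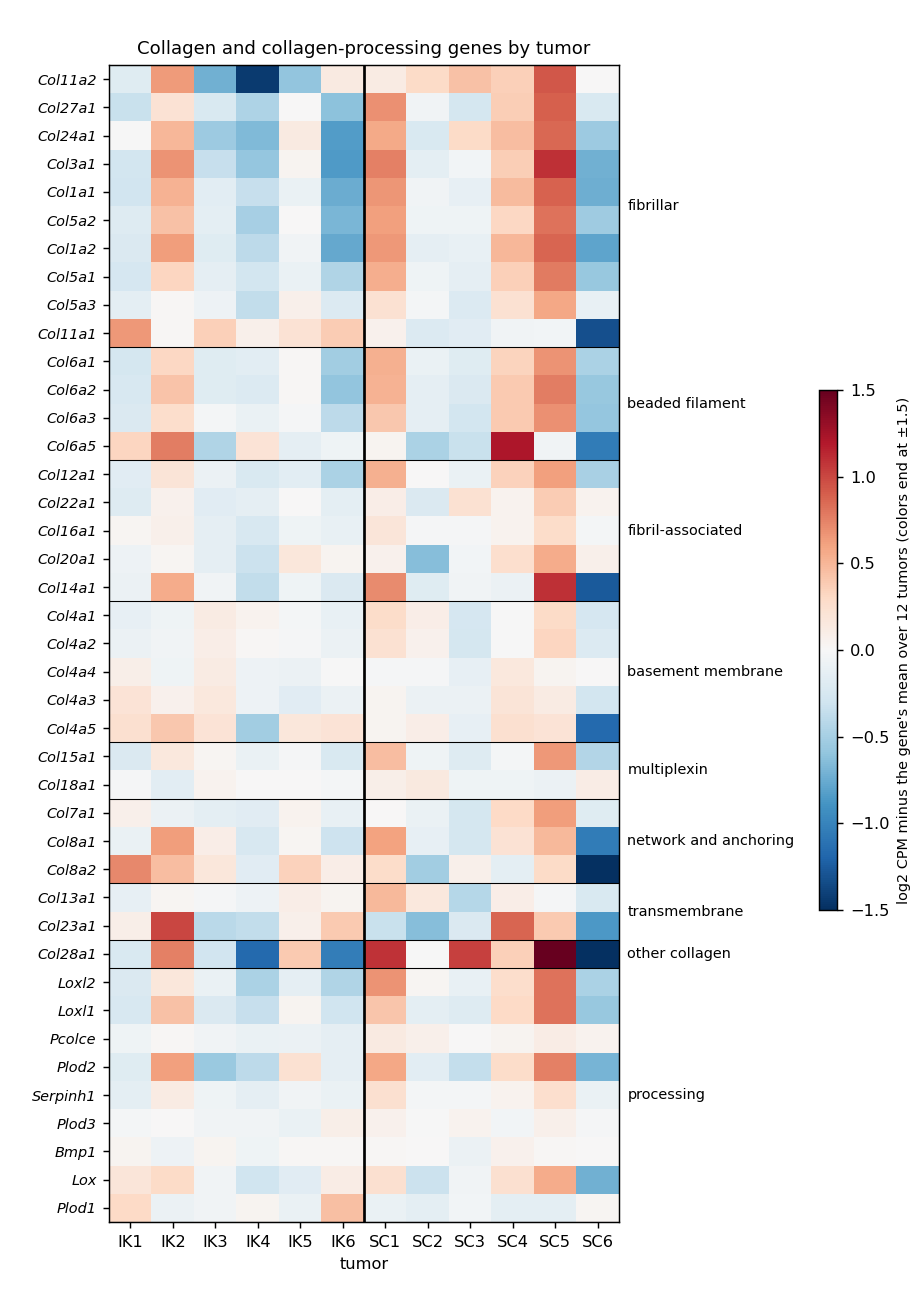
Level of each of the 41 genes in each tumor, as log2 CPM minus the mean of that gene over the 12 tumors, with genes in rows grouped by role and tumors in columns (IK on the left of the line, SC on the right). Color runs from blue (below the gene's mean) to red (above it) and ends at 1.5 in either direction. Red columns at SC5, SC1 and IK2 and blue ones at SC6 and IK6 run through most fibrillar and beaded filament rows. Col11a1, Col11a2 and Col6a5 depart from this, and Col18a1, Col4a4, Bmp1 and Plod3 stay pale.

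Between the groups, 29 of the 38 tested genes had a lower mean beside an intra-kidney tumor and 0 passed the test. The background for a lower mean was 46.7% of the 14008 genes tested. The median difference, IK minus SC, was -0.127 (log2), beside 0.00743 for all genes tested. By limma with Benjamini-Hochberg adjustment over all genes tested, 0 of 38 had an adjusted p under 0.05, and 0 of all genes tested did (background 0%). The smallest adjusted p among the 38 was 0.432. At an unadjusted p under 0.05 there were 3 lower genes (Pcolce, Col27a1 and Col16a1), where the background was 5.62%, and 1 higher gene (Col11a1), where it was 5.86%. Taking both directions, 11.5% of all genes tested had such a p. None of the 38 had groups that did not overlap, where the background was 0.200% lower and 0.278% higher. In bulk tumors fewer cells of a type and less RNA per cell cannot be told apart.

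These counts rest in part on single tumors. When 1 tumor was left out in turn, 10 of the 38 differences changed sign and 31 changed sign or moved by over 1.5 times. The 7 that did neither were Col12a1, Col16a1, Col24a1, Col27a1, Loxl2, Pcolce and Serpinh1. Without SC5 the median difference was -0.0298, with 25 genes lower (background 48.5%), and without SC1 it was -0.0701. Without SC6 it was -0.166, with 13 genes lower (background 11.3%) and 2 higher (background 9.57%) at an unadjusted p under 0.05, and a smallest adjusted p of 0.196. Without IK2, 1 of the 38 genes, Pcolce (adjusted p = 0.0362, limma), passed the threshold (background 1.22%). With limma's weights per tumor, Pcolce was again the 1 gene past the threshold (background 3.89%).

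**Figure D2:**
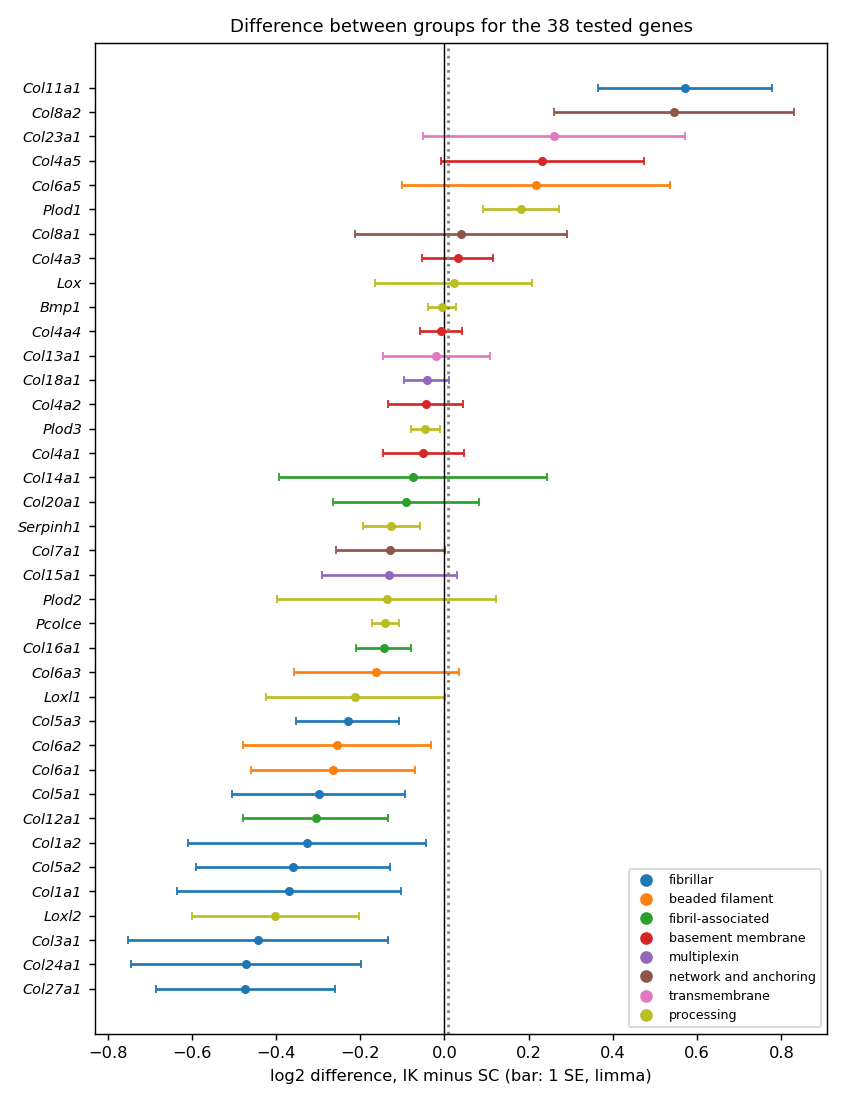
Difference in mean log2 CPM, IK minus SC, for each of the 38 tested genes (points, colored by role; bars are 1 SE from limma; solid line at 0; dotted line at the median of all genes tested). Fibrillar chains other than Col11a1 lie to the left of 0, and no difference passed the test after adjustment.

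Among the fibrillar chains, 8 of 9 tested had a lower mean in the IK group, with a median difference of -0.36, and none passed the test. Col1a1, one of the 2 chains of type I collagen, ran from 10.59 through a median of 11.12 to 11.85 log2 CPM in the IK group and from 10.60 through 11.54 to 12.22 in the SC group. Nearly the whole IK range lay inside the SC range, since IK2 lay among the SC tumors of high value and SC6 at the level of the lowest IK tumor. SC1 (11.997) and SC5 (12.22) lay above every IK tumor. Its means were 11.15 ± 0.41 and 11.52 ± 0.60 (SD, n = 6 each), a level 1.29-fold higher in the SC group (difference -0.37, SE 0.27, limma adjusted p = 0.548). Leaving out 1 tumor moved this difference between -0.55 (without SC6) and -0.23 (without SC5). Col1a2, the partner chain, differed by -0.33 (SE 0.28), and Col3a1, the chain of type III collagen, by -0.44 (SE 0.31). Col3a1 spanned 10.53 to 12.05 in the IK group and 10.66 to 12.48 in the SC group, with the same tumors, IK2, SC1 and SC5, on top.

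Type V collagen, which sits inside type I fibrils and sets their width, was also lower on average in the IK group. Col5a1 differed by -0.30 (SE 0.20), Col5a2 by -0.36 (SE 0.23) and Col5a3 by -0.23 (SE 0.12), with values of -0.17, -0.23 and -0.14 without SC5. Of the 38 tested genes, the minor fibrillar chains Col27a1 and Col24a1 had the largest differences downward. Col27a1 ran from 3.14 through 3.48 to 3.97 in the IK group and from 3.49 through 3.92 to 4.66 in the SC group. Its difference was -0.47 (SE 0.21, limma p = 0.0448 and adjusted p = 0.432, exact permutation p = 0.0801 for this gene alone), with the upper IK tumors inside the SC range. Col24a1 differed by -0.47 (SE 0.27). Col11a2, which was too low to test with all genes, had 14 to 87 reads per tumor. Its means were -0.83 ± 0.73 in the IK group and -0.11 ± 0.32 in the SC group (SD, n = 6 each), a difference of -0.72 (exact permutation p = 0.0541 for this gene alone, two-sided).

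Col11a1, a chain of the type XI collagen of thin fibrils that is best known from cartilage, lay in the other direction. Its values were 4.27, 4.53 and 4.90 (lowest, median and highest) in the IK group and 2.93, 4.14 and 4.32 in the SC group. The lowest IK tumor, IK2, lay below only SC1, so that the groups overlapped by those 2 tumors, and SC6 stood far below all others. The means were 4.53 ± 0.23 and 3.96 ± 0.52 (SD, n = 6 each), 1.49-fold higher in the IK group, with an exact permutation p of 0.0043 for this gene alone (two-sided) and a limma adjusted p of 0.432 over all genes. Without SC6 the difference of 0.57 was 0.36 (limma adjusted p = 0.196). Reads for Col11a1 numbered 405 to 1810 per tumor.

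Beaded filament chains had lower means in 3 of 4 tested genes, with a median of -0.21. Col6a1 differed by -0.26 (SE 0.19), Col6a2 by -0.25 (SE 0.22) and Col6a3 by -0.16 (SE 0.20). Without SC5 these were -0.16, -0.13 and -0.04, and without SC6 -0.39, -0.39 and -0.29. Col6a5, a chain that can stand in for the third one, was rare at 74 to 425 reads and differed by 0.22 (SE 0.32), a value that was 0.03 without SC6 and 0.48 without SC4. All 4 tested fibril-associated chains, which coat fibrils, had lower means with a median of -0.12. Col12a1 differed by -0.31 (SE 0.17). Col16a1 differed by -0.14 (SE 0.07, limma p = 0.0459 and adjusted p = 0.432, exact permutation p = 0.0714 for this gene alone). Col14a1 had a 5.14-fold range over the tumors, from 4.12 in SC6 to 6.48 in SC5. Its difference of -0.07 (SE 0.32) was -0.33 without SC6, 0.06 without SC1 and 0.14 without SC5, so that its sign changed with the tumor left out. Col22a1, with 43 to 72 reads, was too low to test with all genes and differed by -0.20 (exact permutation p = 0.0671 for this gene alone).

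Basement membrane chains had lower means in 3 of 5 genes, with a median of -0.01. Their median residual SD (spread between tumors within the groups, log2) was 0.171, beside 0.448 for the fibrillar chains and 0.114 for all genes tested, and 4 of the 5 were above the latter. Col4a1 and Col4a2, the chains of the ubiquitous type IV network, ran from 8.27 to 8.81 and from 7.51 to 8.09 over the 12 tumors. Their differences were -0.05 (SE 0.10) and -0.04 (SE 0.09), and both signs changed without SC5. Col4a3, Col4a4 and Col4a5 encode the chains of the network best known from the kidney glomerulus. Col4a4 kept within 7.002 to 7.283 in all 12 tumors and differed by -0.01 (SE 0.05), and Col4a3 by 0.03 (SE 0.09), both with signs that changed with the tumor left out. Col4a5 had 23 to 75 reads per tumor and differed by 0.23 (SE 0.24), which was 0.02 without SC6. Of the multiplexins, which are basement membrane collagens with heparan or chondroitin sulfate chains, Col15a1 differed by -0.13 (SE 0.16, -0.01 without SC5). Col18a1 was steady at 10.35 to 10.66 and differed by -0.04 (SE 0.05).

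The network, anchoring and transmembrane collagens gave no common direction. Col8a1 and Col8a2 encode the chains of the hexagonal network first known from the cornea and from vessels. Col8a1 differed by 0.04 (SE 0.25), which was -0.17 without SC6, -0.08 without IK2 and 0.16 without SC1. Col8a2 ran from 2.65 through 3.08 to 3.54 in the IK group and from 1.22 through 2.78 to 3.11 in the SC group, where SC6 was again the lowest tumor. Its difference of 0.54 (SE 0.29, limma adjusted p = 0.459) was 0.28 without SC6. Col7a1, the anchoring fibril chain of skin, differed by -0.13 (SE 0.13), which was -0.02 without SC5. The transmembrane collagens Col13a1 and Col23a1 differed by -0.02 (SE 0.13, from -0.11 without SC3 to 0.08 without SC1) and 0.26 (SE 0.31), the latter 0.09 without IK2 and 0.46 without SC4. Col28a1 had 7 to 140 reads per tumor and was not tested with all genes. Its means were -0.66 ± 0.76 (IK) and -0.14 ± 1.43 (SC, SD, n = 6 each), with an exact permutation p of 0.457 for this gene alone.

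Of the 9 processing genes, 7 had a lower mean in the IK group, with a median of -0.13. Pcolce, the enhancer of C-propeptide removal, had the smallest p of the 38 genes and one of the narrowest spreads. Its values were 8.69, 8.75 and 8.84 (lowest, median and highest) in the IK group and 8.84, 8.90 and 8.96 in the SC group. Only IK2 reached the lowest SC tumor, SC3. The means of 8.76 ± 0.05 and 8.90 ± 0.04 (SD, n = 6 each) differed by -0.14 (SE 0.03), a 1.10-fold higher level in the SC group, with limma p = 0.000714, adjusted p = 0.432 and an exact permutation p of 0.0043 for this gene alone (two-sided). Without IK2 the difference was -0.16 with a limma adjusted p of 0.0362. Bmp1, which encodes the protease itself, differed by -0.01 (SE 0.03) and kept within 8.27 to 8.42.

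The lysyl hydroxylases had no common direction between the groups. Plod1, which modifies the helical part of the chains, ran from 7.33 through 7.42 to 7.88 in the IK group and from 7.28 through 7.30 to 7.46 in the SC group. Its top values were those of IK6 (7.88) and IK1 (7.73), and the other 4 IK tumors lay within or close to the SC range. The difference was 0.18 (SE 0.09, limma adjusted p = 0.448), and 0.11 without IK6. Plod2, which modifies the telopeptides, was far lower in level and differed by -0.14 (SE 0.26), which was -0.29 without SC6 and -1.56e-05 without SC5. Plod3, which also adds sugars, differed by -0.05 (SE 0.03) and kept within 7.40 to 7.58. Serpinh1, at 9.29 to 9.68 over all tumors, differed by -0.13 (SE 0.07).

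Among the cross-linking enzymes, Loxl2 ran from 5.71 through 6.02 to 6.35 in the IK group and from 5.72 through 6.33 to 7.003 in the SC group. Its difference was -0.40 (SE 0.20, limma adjusted p = 0.447). Loxl1 differed by -0.21 (SE 0.21), which was -0.07 without SC5 and -0.35 without SC6. Lox differed by 0.02 (SE 0.19), and this sign changed with the tumor left out, from -0.12 without SC6 to 0.14 without SC5.

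**Figure D3:**
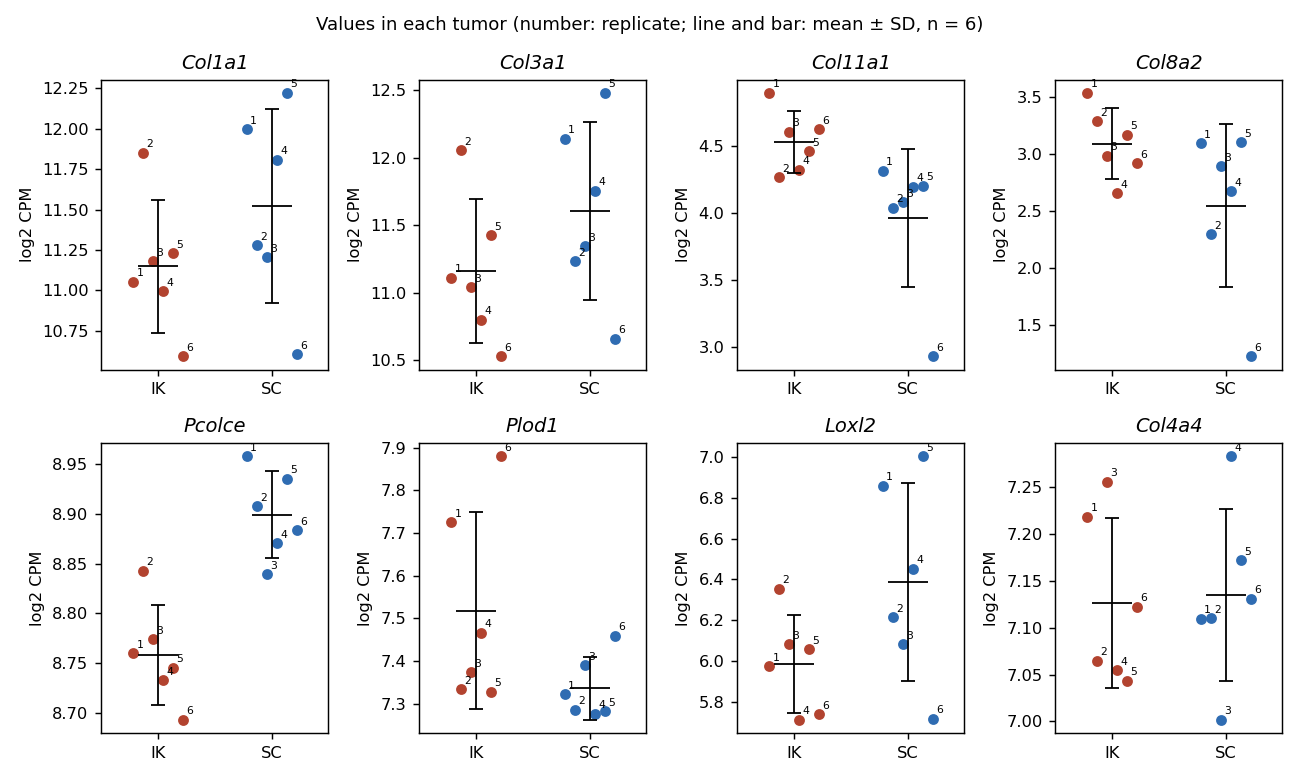
Level of 8 of the genes in each tumor (log2 CPM; axes differ in range and do not start at 0; numbers are replicates; horizontal line and bar are mean ± SD, n = 6). Col1a1, Col3a1 and Loxl2 have overlapping ranges in the groups with SC5 on top, Col11a1 and Col8a2 have SC6 far below, Pcolce is lower in the IK group save IK2, Plod1 is highest in IK6 and IK1, and Col4a4 stays within 7.002 to 7.283.

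The other genes of the collagen pathway were read from a list of 49, of which 45 were in the table and tested. Of these, 25 had a lower and 20 a higher mean in the IK group, and 0 passed the threshold by limma. At an unadjusted p under 0.05 there were 2 lower genes, Lair1 and Tnxb (background 5.62%), and 1 higher, Loxl4 (background 5.86%). Fibril regulators were lower in 9 of 11, with the small proteoglycan genes Lum at -0.46 and Dcn at -0.47. Fibronectin (Fn1, at 0.26, SE 0.20) and fibromodulin (Fmod, at 0.27, SE 0.21), both fibril-binding, were the other 2. Of the receptors, 4 of 9 were lower, among them the inhibitory leukocyte receptor Lair1 (-0.67, SE 0.27) and Itga11 (-0.55, SE 0.30), an integrin chain that binds type I collagen, while Itga10, another collagen-binding integrin chain, lay at 0.35 (SE 0.19). Of the N-propeptide proteases, Adamts14 differed by -0.76 (SE 0.39) and Adamts2 by -0.38 (SE 0.22). Prolyl hydroxylases were lower in 3 of 8, with P4ha1 at 0.17 (SE 0.08), and chaperone and export genes in 6 of 11, with none beyond -0.29 or 0.07.

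Across the 12 tumors most chains followed Col1a1. The correlations over all 12 tumors pool the groups, and only those within a group are apart from the difference between groups. In all, 55 relations were computed, of which 33 were added after values had been seen: the pairs of Col1a1 with the collagen and processing genes outside the first list of pairs, and Plod1 with Slc2a1 and Bnip3. Of the 40 other genes, 13 had a Pearson r with Col1a1 above 0.9 and 20 above 0.8, 10 were below 0.5 and 2 were negative. The p adjusted over the 55 relations was under 0.05 for 26 of the 40 by Pearson's r and for 23 by both measures (permutation test). The share of all genes tested that reach such values was not computed, so these counts cannot set the collagens apart. The first principal component of all tested genes, with 62.6% of the variance, itself had r = 0.922 with Col1a1. Col1a2 had r = 0.995 and Spearman's rho = 0.972 (permutation p = 1e-05 for each, the smallest that the resampling can give, adjusted p = 3.93e-05 and 9.17e-05). Without SC1 and SC5, the tumors farthest from the median of Col1a1, r was 0.994, and within the groups it was 0.995 (IK) and 0.998 (SC). Col5a1 (0.990), Col6a2 (0.990), Col6a1 (0.985), Col12a1 (0.984), Col5a2 (0.983) and Col3a1 (0.980) followed. Loxl1 (0.957) and Loxl2 (0.952) tracked Col1a1 more closely than Lox did (0.732, adjusted permutation p = 0.0133, 0.579 without SC1 and SC5); the differences between these correlations were not tested.

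Other genes did not share this course. Col4a1 had r = 0.676 and rho = 0.594 (permutation p = 0.0168 and 0.0468, adjusted 0.0264 and 0.0696), and r was 0.344 without SC1 and SC5, so that the relation rests on those tumors. Col18a1 had r = -0.372 and rho = -0.308 (adjusted permutation p = 0.264 and 0.359), Col4a4 r = 0.149, Plod3 r = 0.236 and Bmp1 r = 0.0159. Col11a1 had r = 0.15 and rho = -0.294 over all tumors (adjusted permutation p = 0.673 and 0.376). Within the groups its r with Col1a1 was -0.517 in the IK and 0.839 in the SC group, the latter a group in which SC6 is lowest for both genes. Plod1 was one of the 2 negative ones, with r = -0.677 and rho = -0.867 (adjusted permutation p = 0.0207 and 0.0013).

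Plod1 was also set against 2 genes induced by low oxygen, a pair of relations added after its high values in IK1 and IK6 had been seen. With Slc2a1, the glucose transporter GLUT1, r was 0.972 and rho 0.888 (permutation p = 2e-05 and 0.00039, adjusted 6.47e-05 and 0.00124). Without IK1 and IK6 r was 0.893, and within the groups it was 0.981 (IK) and 0.880 (SC). With Bnip3, a mitophagy gene, r was 0.931 and rho 0.874 (adjusted permutation p = 3.93e-05 and 0.00124). Plod2 went the other way with Bnip3, at r = -0.623 and rho = -0.734 (adjusted permutation p = 0.047 and 0.0153), and r was -0.868 without IK1 and IK6. With Slc2a1 Plod2 had r = -0.475 and rho = -0.629 (adjusted permutation p = 0.147 and 0.0541), and r was -0.755 without IK1 and IK6. Plod2 also followed Col1a1, with r = 0.863 and rho = 0.797 (adjusted permutation p = 0.00119 and 0.00564). That r was 0.753 without SC1 and SC5, 0.668 within the IK group and 0.989 within the SC group. Whether the relations of Plod2 with Bnip3 and with Col1a1 are separate was not tested. P4ha1, a prolyl hydroxylase subunit, had r = 0.811 with Slc2a1 but 0.124 without IK1 and IK6, so that this relation rests on those 2 tumors (rho = 0.497, adjusted permutation p = 0.0107 and 0.145). Lox gave r = -0.151 with Slc2a1 and -0.315 with Bnip3 (adjusted permutation p = 0.664 and 0.351), with rho of -0.385 and -0.51 (adjusted permutation p = 0.268 and 0.133). Without IK1 and IK6 these r were -0.72 and -0.835, for which no p was computed.

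**Figure D4:**
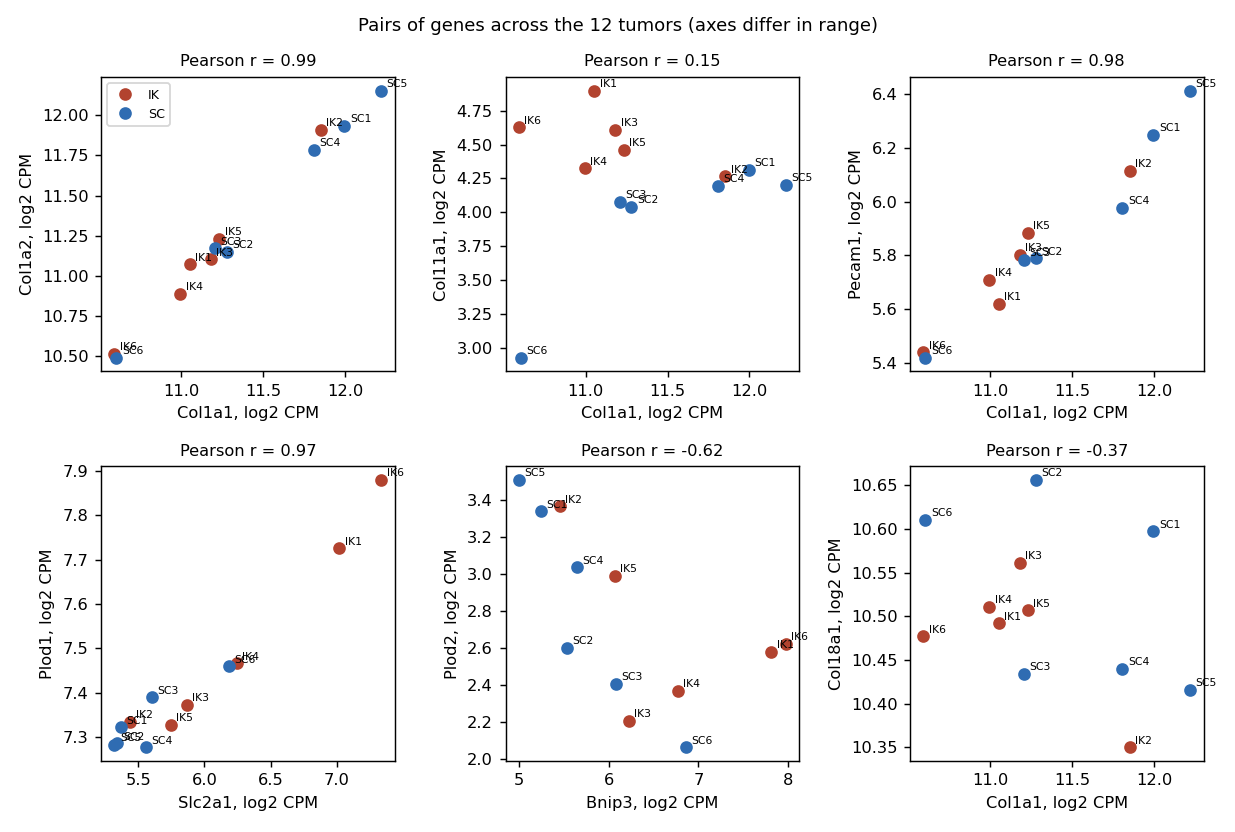
Pairs of genes across the 12 tumors (log2 CPM on both axes, with axes that differ in range; red IK, blue SC; Pearson r above each panel). Col1a2 and Pecam1 line up with Col1a1, Col11a1 and Col18a1 do not, Plod1 lines up with Slc2a1 with IK1 and IK6 at the upper end, and Plod2 is lower where Bnip3 is higher.

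Single markers of several cell types moved with the fibrillar chains. Col1a1 correlated with the endothelial gene Pecam1 (r = 0.978, rho = 0.951), the leukocyte gene Ptprc (0.942, 0.937), the smooth muscle gene Acta2 (0.942, 0.874) and Pdgfrb of fibroblasts and pericytes (0.887, 0.86), all with adjusted permutation p of at most 0.00167. The fat gene Adipoq (r = 0.709, rho = 0.881) and the muscle gene Ckm (r = 0.664, rho = 0.776) also varied with Col1a1, with adjusted permutation p of 0.0185 and 0.000843 for Adipoq and 0.0175 and 0.00802 for Ckm. Without SC1 and SC5 their r was 0.54 and 0.564. Only a single marker of each cell type was set against Col1a1, and some other listed markers took another course. The fat gene Plin4 was lowest in IK2 (7.38) and highest in SC6 (7.77). The fibroblast gene Fbln1 was lowest in SC5 (8.88) and highest in SC6 (9.13). The tumor keratin Krt8 had r = -0.522 and rho = -0.343 with Col1a1 (adjusted permutation p = 0.111 and 0.317). Krt18, also a tumor keratin, was highest in SC4 and IK2 (8.60 in each). Fibroblast markers were 10 of 10 in the table with 9 lower, and their summed level was 10.01 to 10.52 in the IK group and 10.09 to 10.69 in the SC group. Fbln1 was the highest of them in every tumor and so weighs most in that sum. All 6 endothelial and all 4 leukocyte markers and 5 of 6 of pericytes and smooth muscle also had lower means, as had 5 of 6 renal epithelial markers. Of 5 fat markers 4 were in the table and 3 tested, all lower with a median of -1.15 and 2 of them at an unadjusted p under 0.05 (limma, background 5.62%). The summed level of the fat markers was 7.42 to 7.70 in the IK and 7.48 to 7.80 in the SC group. That sum is nearly all Plin4 (7.38 to 7.77 over the tumors) and says little of the other fat genes. Genes induced by low oxygen had higher means in 7 of 8, of which 4 had an unadjusted p under 0.05 (limma, background 5.86%). The summed endothelial level was 7.24 to 7.82 (IK) and 7.20 to 8.12 (SC), that of leukocytes 8.90 to 9.65 and 8.88 to 9.76, and that of pericytes and smooth muscle 7.79 to 8.34 and 7.75 to 8.63. Skeletal muscle markers, 7 of 7 in the table, summed to 1.72 in SC6 and to 5.36 to 8.78 in the other 11 tumors. Their part in the differences was not tested.

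With the mean of the fibroblast markers of each tumor in the model, 18 of the 38 genes had a lower value in the IK group (background 48.8%) and the median difference was 0.013. At an unadjusted p under 0.05 there were then 3 lower genes (background 5.33%) and 5 higher ones (background 4.15%), and 0 passed after adjustment (limma). The lower genes were Pcolce (-0.12), Col27a1 (-0.23) and Loxl2 (-0.17), and the higher ones Col8a2 (0.82), Col11a1 (0.69), Col8a1 (0.33), Col4a5 (0.43) and Col14a1 (0.30). Col1a2, at -0.33 without the covariate, was at 0.02 with it. Dcn, Lum and Fbln1 are among both the fibroblast markers and the fibril regulators, and single markers of several cell types moved with Col1a1. The fit therefore cannot assign a difference to fibroblasts, and the source of the transcripts was not tested. With the mean of muscle and fat markers as the covariate in its place (the skin markers being outside the table), 27 of the 38 genes had a lower value (background 47.2%), the median difference was -0.0807 and 0 passed after adjustment (limma).

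Several pairs of chains of one trimer kept nearly fixed proportions, while some pairs with a rare partner varied more. These ratios, taken within each tumor from levels per kilobase, were chosen after the values had been seen and are given as a description. Col1a1 over Col1a2 was 0.935 on average, with a range of 0.867 to 0.987. Col4a1 over Col4a2 was 1.64, between 1.60 and 1.70 in all 12 tumors, and Col6a1 over Col6a2 was 1.82. Col4a4 exceeded Col4a3 by 3.52-fold, also within a narrow range (3.21 to 4.25). It exceeded Col4a5, which had 23 to 75 reads per tumor, by 91.9-fold (66.6 to 206). Col5a1 exceeded Col11a1 by 16.0-fold in the IK and 29.3-fold in the SC group, and Col8a1 exceeded Col8a2 by 7.59-fold and 10.8-fold. Plod3 exceeded Plod2 by 29.9-fold and Plod1 exceeded it by 28.8-fold over the 12 tumors. Levels per kilobase depend on the transcript chosen, and without known strand handling reads of overlapping or antisense genes cannot be told apart from those of the gene itself.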

How the data were processed

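RNA of 12 whole tumors was measured. Per the labels' protocols, a Qiagen RNeasy kit gave total RNA, which went into Illumina TruSeq libraries. Per the submitters' processing notes the build was mm9, and the tools were TopHat 1.4.1, CASAVA 1.8.2, limma and HTSeq. Strand handling and annotation release are not given in the sources used here. The authors deposited log2 values per gene, and these have the form of log2 CPM with 0.5 reads added. Whole reads were recovered for 100% of values within 0.001 of a read and were summed to give the depth. Every gene had at least 1 CPM in at least 2 tumors. At this depth the spread between tumors limits the precision for all but the lowest genes.

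Symbols (14004 of 14496 genes) and transcript lengths (longest protein-coding transcript, GENCODE M21) came from newer annotations. The 14008 genes at or above a log2 CPM of 0 in 6 or more tumors were fitted with limma 3.58.1 in R 4.3.3 (empirical Bayes variances with a trend, two-sided, Benjamini-Hochberg, threshold 0.05). The design allowed for a count test, but the unit was log2 and limma was used. Single genes were also compared by exact permutation over all assignments of tumors to groups. Correlations used 100000 permutations. The fit was tested on simulated data. Tumors of a group all differed by more than counting error, with chi-squares of 13.2 to 164 per degree of freedom, so none was taken as a duplicate.

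The genes, the gene lists and the markers were chosen with earlier results of these data known. Named in the text are 23 set genes, the 5 of largest difference in each direction, the 5 of smallest p and, of the other pathway genes, the 3 of largest difference in each direction; pathway genes and collagens named beyond this were chosen after their values were seen. Alternatives were other filters, scalings, variance models, tumor weights, a replicate block, marker covariates, voom on recovered reads, other level scales and leaving out each tumor.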

Additional observations from a re-analysis of the deposited data

Results flagged for a closer look

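Among 31 named genes in 2 groups of 6 tumors, 62 sets of values were searched for a single tumor far from the others of its group by Dixon's test of the gap. There were 5 such sets, and chance gives about 1 in 20. In IK2, Col14a1 was 5.943 log2 CPM where the other IK tumors lay at 5.012 to 5.333, and Serpinh1 was 9.549 where they lay at 9.287 to 9.374. In SC6, Col11a1 was 2.926 where the other SC tumors lay at 4.039 to 4.316, and Col4a5 was -1.183 where they lay at -0.141 to 0.218. In IK4, Col4a5 was -0.541 where the other IK tumors lay at 0.147 to 0.378. Col4a5 had 23 to 75 reads per tumor.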

How the results depend on the processing

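Over 31 genes and 26 settings, 777 of 805 values kept their direction and, in settings that gave a p, their side of the threshold. Of the others, 26 changed sign (12 genes) and 2 passed the threshold. The last were Pcolce at -0.151 with tumor weights (limma adjusted p = 0.0369) and -0.158 without IK2 (0.0362). As 0 collagen genes passed in the report, a gene could leave its side of the threshold only by passing. The count of 777 also says little of size, since it holds Col1a1, at -0.369 in the report and -0.0442 with the fibroblast covariate. Genes past the threshold numbered 0 of all genes in the report, 545 with tumor weights, 1 without a variance trend and 0 to 171 when 1 tumor was left out. Among the collagen genes they numbered 0, 1 with tumor weights and 0 to 1 when 1 tumor was left out. With the fibroblast covariate 18 genes had a lower value in the IK group in place of 29, and signs changed for Col14a1 (0.296), Col15a1 (0.0452), Col1a2 (0.0215), Col4a1 (0.0156), Col4a2 (0.0216), Col6a2 (0.0179), Col6a3 (0.0635), Loxl1 (0.0513) and Plod2 (0.168). With a muscle, fat and skin covariate, whose skin genes were not in the table, Col14a1 was 0.0409. Group medians put Bmp1 at 0.0112 and Lox at -0.0615, median centring put Bmp1 at 0.00754, and tumor weights put Col6a5 at -0.0127 and Lox at -0.0664. Leaving out 1 tumor changed the sign of Bmp1 (-0.0237 to 0.00901), Col14a1 (-0.335 to 0.137), Col4a1 (-0.106 to 0.00184), Col4a2 (-0.101 to 0.0147) and Lox (-0.121 to 0.136), and, among the tested genes outside the naming rule, of Col13a1 (-0.107 to 0.0757), Col20a1 (-0.229 to 0.0113), Col4a3 (-0.0208 to 0.0736), Col4a4 (-0.0346 to 0.0217) and Col8a1 (-0.166 to 0.164). The cause of these changes was not tested. Other scalings moved the median of all genes by at most 0.0192.

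Same-numbered tumors of the 2 groups did not deviate together (correlations of -0.305 to 0.447, and 1 of 6 correlated best with its own number). With the replicate block 0 collagen genes passed, and at an unadjusted p under 0.05 (limma) 4 were lower and 3 higher, beside 5.55% and 5.51% of all genes in that fit.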
